A study of Mus musculus with 17 samples.

Results

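The 10 endothelial identity genes described here were Pecam1, Cd34, Tie1, Eng, Emcn, Esam, Eltd1, Sox18, Rhoj and Acvrl1. They were taken by symbol from a table of 43629 mouse genes, with the contrast of solid ID8 tumours against ascites in view, so their levels in that contrast are a description with no test. All 10 had more than 0.5 CPM (a gene's counts scaled to a common library size) in at least 2 of the 17 libraries, which 22671 genes in all did. Eltd1 is the table's older name for Adgrl4.

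Endothelial cells line blood and lymph vessels, and a solid tumour depends on vessels for oxygen and nutrients, whereas ascites is a fluid of floating cells. Endothelial identity is carried by adhesion molecules of the cell junctions, by surface receptors that read growth factor signals in the vessel wall, and by transcription factors of the ETS, SOX and GATA families. Several of these genes are also known from other cells: Pecam1 and Esam from platelets, Cd34 from blood progenitors and stromal cells, and Eng from activated macrophages and stromal cells.

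RNA was sequenced from 17 libraries of the ID8 model, in which a mouse ovarian surface epithelial cancer line is grown at different sites in mice. The healthy tissues are labelled C57BL6, and the labels do not name the strain of the tumour-bearing mice. The 8 groups were tumours on the intestine (n = 3), solid metastases of the ovarian tumours; subcutaneous tumours (n = 2), under the skin of the flank per the protocol and of the scruff per the sample labels; orthotopic tumours (n = 3), from cells put into the bursa of the right ovary; the second ascites tap (n = 3) and the first ascites tap (n = 3), peritoneal fluid with cells drawn by syringe after the orthotopic tumours had spread; healthy intestine (n = 1); healthy ovary (n = 1); and the ID8 line in culture (n = 1). Every tumour and ascites group derived from that line, and the labels name no engineered allele and no drug for any group. The ages of the mice, and which libraries came from the same animal, are not stated in the labels, so p-values measure only the spread between these libraries, which may be technical. A later tap that the protocol mentions was not analysed here.

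The libraries held between 12031221 and 38902048 counts (median 27342134). Subcutaneous tumour 3, first tap 3 and second tap 1 had between 32775 and 33393 genes with a count, against 21157 to 26838 in the other 14 libraries. The tumours on the intestine carried the intestinal epithelial markers of the bowel (7 of 7 in the table), whose summed level was 5237 to 13720 CPM, against 12560 CPM in healthy intestine. The mesothelial and ovarian surface markers (7 of 7) summed to 2117 CPM in the ID8 line. Because these are bulk libraries, fewer endothelial cells and less RNA per endothelial cell cannot be told apart.

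The promoters of the genes that were almost absent from ascites, and of Eng, which was not, are shown for comparison, since ETS factors are known regulators of endothelial genes. They are RefSeq promoters of build GRCm38.p6, from 250 bases before to 50 after the gene start, and 6 of the 10 genes had an entry in the table. The windows are chr4:118489800-118490099 on the minus strand for Tie1, and on the plus strand chr3:137340828-137341127 for Emcn, chr3:151437632-151437931 for Eltd1 and chr2:32646345-32646644 for Eng. Capitals mark each ETS core, AGGAA or CGGAA, found on either strand, which reads TTCCT or TTCCG where it lies on the other strand.
Tie1: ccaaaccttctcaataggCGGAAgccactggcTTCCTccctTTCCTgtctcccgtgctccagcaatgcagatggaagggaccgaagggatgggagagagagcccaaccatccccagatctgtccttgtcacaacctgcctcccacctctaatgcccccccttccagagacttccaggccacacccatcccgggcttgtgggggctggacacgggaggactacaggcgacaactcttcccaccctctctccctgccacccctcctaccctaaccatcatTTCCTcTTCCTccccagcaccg
Emcn: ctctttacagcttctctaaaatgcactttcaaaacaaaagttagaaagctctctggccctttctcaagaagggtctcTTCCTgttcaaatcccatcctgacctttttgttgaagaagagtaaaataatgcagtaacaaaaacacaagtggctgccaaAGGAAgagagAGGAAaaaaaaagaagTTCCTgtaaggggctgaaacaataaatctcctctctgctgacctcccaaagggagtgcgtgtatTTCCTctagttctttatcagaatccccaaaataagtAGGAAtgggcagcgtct
Eltd1: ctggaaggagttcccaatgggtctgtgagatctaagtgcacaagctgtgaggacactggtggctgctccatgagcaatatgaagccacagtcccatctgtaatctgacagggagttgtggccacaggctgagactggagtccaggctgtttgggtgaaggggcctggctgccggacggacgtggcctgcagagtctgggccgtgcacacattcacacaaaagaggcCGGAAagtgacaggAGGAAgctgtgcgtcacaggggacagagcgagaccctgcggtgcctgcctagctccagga
Eng: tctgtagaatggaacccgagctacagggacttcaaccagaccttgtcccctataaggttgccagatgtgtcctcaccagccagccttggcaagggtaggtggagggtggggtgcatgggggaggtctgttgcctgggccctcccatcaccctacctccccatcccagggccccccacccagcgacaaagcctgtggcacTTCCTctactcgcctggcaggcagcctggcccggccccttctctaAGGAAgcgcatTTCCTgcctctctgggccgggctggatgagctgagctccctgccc
The Emcn window held 6 such cores, the Tie1 window 5, the Rhoj window 4, the Cd34 and Eng windows 3 each and the Eltd1 window 2. Of 32544 mouse promoters of the same length, 78.0% held at least 1 core, 47.8% at least 2, 23.7% at least 3, 10.1% at least 4 and 3.84% at least 5. A SOX core, ACAAT or its complement ATTGT, stood once in the Cd34, Emcn and Rhoj windows, against 30.8% of promoters with at least 1, and the GATA core AGATAA or TTATCT stood in none of the 6 windows, against 11.2%. The number of cores therefore did not separate Eng from Cd34, and these matches are descriptions of the letters, not of binding.

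Among the junction and surface molecules, Pecam1 (CD31, an adhesion molecule of endothelial junctions) ran from 40.4 to 268 CPM in the 8 solid tumours with a median of 55.4, and from 5.66 to 12.9 CPM in the 6 ascites libraries with a median of 9.47. Emcn (endomucin, a mucin-like glycoprotein of capillaries and veins) ran from 4.09 to 26.6 CPM in solid tumours with a median of 12.8, and from 0 to 0.344 CPM in ascites with a median of 0.0592. Cd34 (a sialomucin of endothelium and blood progenitors) ran from 4.41 to 25.3 CPM in solid tumours with a median of 19.7, and from 0.849 to 1.78 CPM in ascites with a median of 1.27. For these genes every solid tumour lay above every ascites library. Esam, an adhesion molecule of endothelial tight junctions, had the opposite order: 6.40 to 81.1 CPM in solid tumours with a median of 25.2, and 15.7 to 228 CPM in ascites with a median of 120. The Esam ranges overlapped, since first tap 2, at 15.7 CPM, was lower than 7 of the 8 solid tumours, but the levels of 4 ascites libraries were above those of every solid tumour.

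Among the receptors, Tie1 (a receptor tyrosine kinase that partners the angiopoietin receptor Tek) ran from 7.32 to 32.3 CPM in solid tumours with a median of 13.1, and from 0 to 0.880 CPM in ascites with a median of 0.0378. Its 49 ascites reads came from second tap 1 (24), first tap 3 (23) and first tap 2 (2), and the other 3 ascites libraries had 0. A count of 0 allows up to 3 reads, which is 0.0858 CPM in second tap 2, 0.110 CPM in second tap 3 and 0.0821 CPM in first tap 1, for counting error only. The libraries with 24 and 23 reads were also those with an unusually large number of genes with a count. Eltd1, an adhesion G-protein-coupled receptor of vessels, ran from 10.4 to 63.6 CPM in solid tumours with a median of 16.6, and from 0 to 0.799 CPM in ascites with a median of 0.0668. Both receptors were higher in every solid tumour than in any ascites library, and each had between 0 and 2 reads in 4 of the 6 ascites libraries.

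Eng, the co-receptor for bone morphogenetic proteins and TGF-beta on endothelium, ran from 23.5 to 128 CPM in solid tumours with a median of 43.4, and from 11.4 to 67.7 CPM in ascites with a median of 31.6, so the groups overlapped. Acvrl1 (ALK1), the type I receptor with which endoglin acts, ran from 10.3 to 21.5 CPM in solid tumours with a median of 17.6, and from 24.0 to 77.6 CPM in ascites with a median of 33.4. Every ascites library lay above every solid tumour for Acvrl1.

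The intracellular genes had the same order as Pecam1, Emcn and Cd34. Sox18, a SoxF transcription factor of blood and lymph vessels, ran from 9.03 to 33.4 CPM in solid tumours with a median of 17.97, and from 0.110 to 3.85 CPM in ascites with a median of 0.945. Rhoj, a small GTPase of endothelium, ran from 13.8 to 41.1 CPM in solid tumours with a median of 18.2, and from 0.657 to 2.49 CPM in ascites with a median of 2.12. Neither gene's groups overlapped. Markers of other cells known to carry Cd34 were read beside these genes. The 9 fibroblast markers summed to 606 to 6064 CPM in solid tumours, 186 to 964 CPM in ascites and 1114 CPM in the ID8 line, which had 0 reads of Cd34. The 8 blood progenitor markers summed to 159 to 665 CPM in solid tumours and 275 to 701 CPM in ascites. For both lists the ranges of solid tumours and ascites overlap. The part of these cells in the levels of Cd34 and the other genes was not tested.

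**Figure D1:**
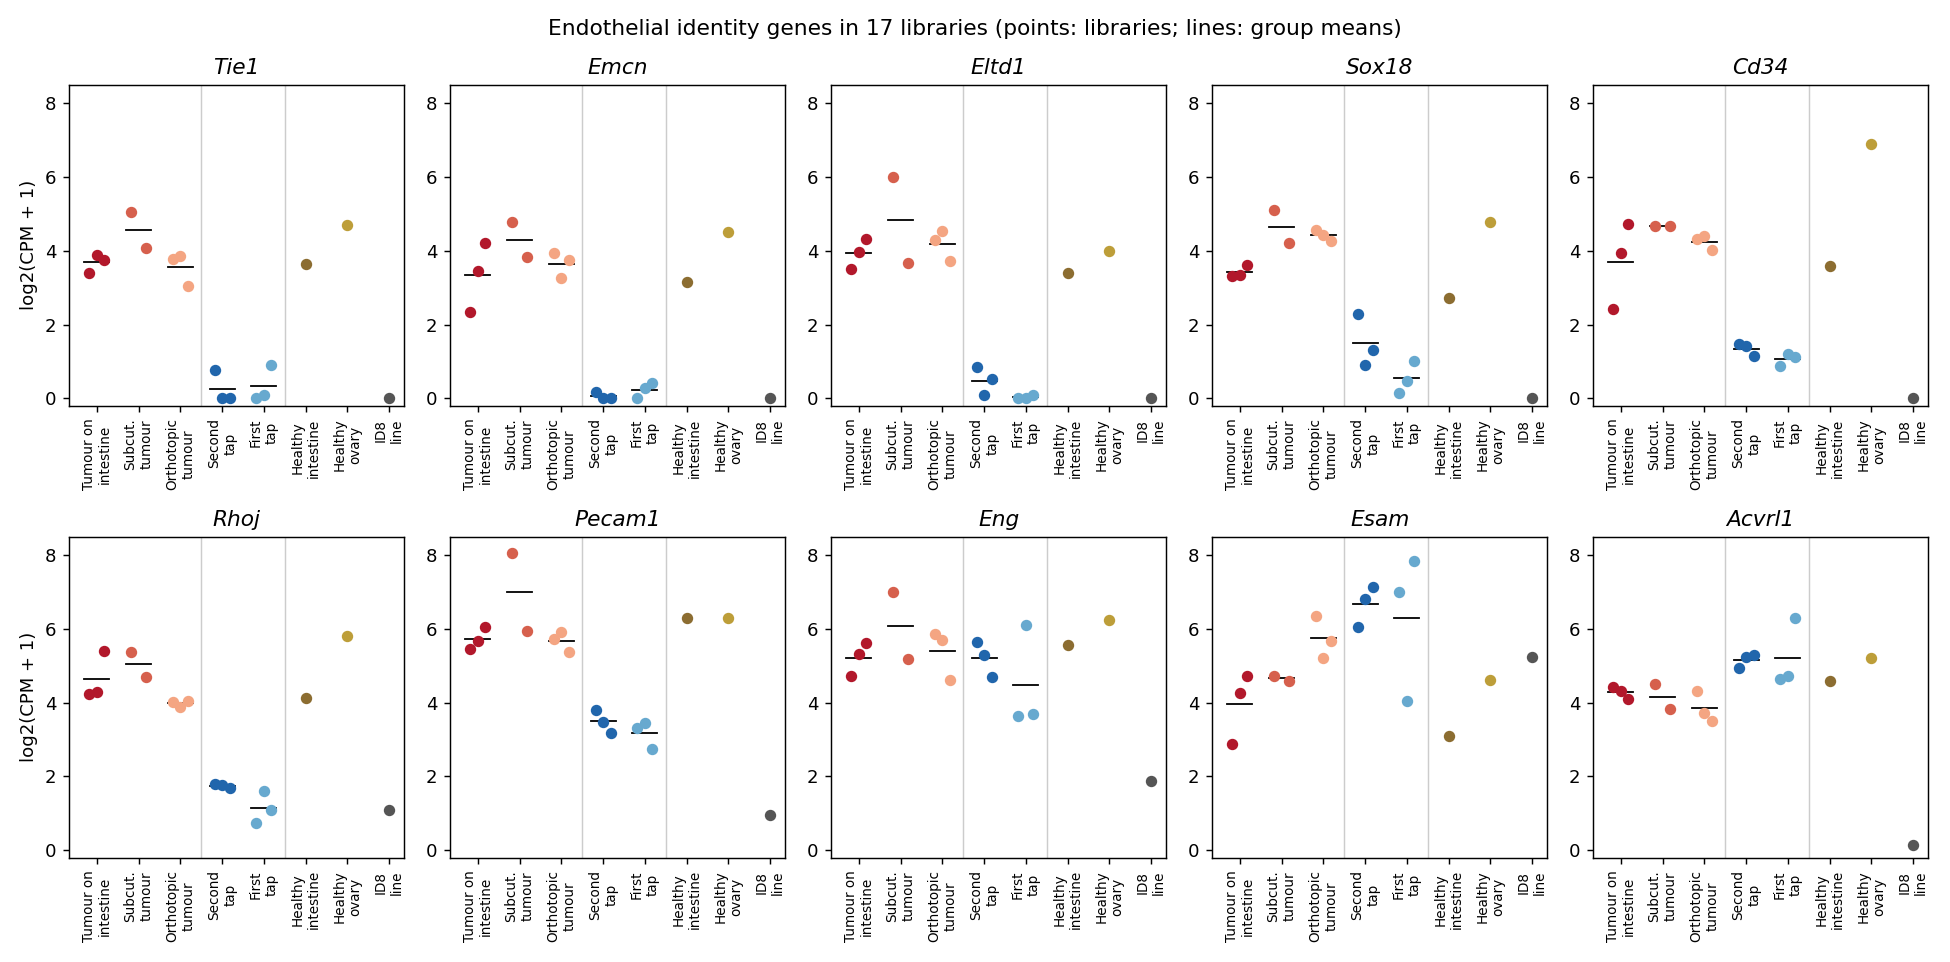
Level of each of the 10 genes on the log2(CPM + 1) scale in each of the 17 libraries (points), by group, with lines at the means of groups of 2 or 3. Tie1, Emcn and Eltd1 stay below 1 in all 6 ascites libraries and above 2 in all 8 solid tumours, whereas Eng overlaps and Acvrl1 is higher in every ascites library.

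In all, 7 of the 10 genes (Pecam1, Cd34, Tie1, Emcn, Eltd1, Sox18 and Rhoj) were higher in all 8 solid tumours than in all 6 ascites libraries, an order that 1.76% of all genes tested had. The reverse order held for 1 of the 10 (Acvrl1) and for 1.32% of all genes tested. The genes were chosen on this contrast, so nothing is read from these counts. The log2 fold change of solid tumours over ascites, with each tumour site and each tap weighted equally, was 7.62 ± 0.78 (SE) for Eltd1, 7.20 ± 0.85 for Emcn, 5.74 ± 1.04 for Tie1, 4.08 ± 0.51 for Sox18, 3.83 ± 0.37 for Cd34, 3.75 ± 0.33 for Rhoj and 3.04 ± 0.33 for Pecam1. It was 0.61 ± 0.46 for Eng, -1.22 ± 0.29 for Acvrl1 and -2.02 ± 0.49 for Esam. The SE, here and below, is the size of the log2 fold change divided by the square root of edgeR's quasi-likelihood F statistic. For this contrast, on which the genes were chosen, it is not to be read as a test. The median over the 10 genes was 3.79, beside a median of -0.07 over all genes tested.

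The difference was present at each tumour site. Against ascites, Eltd1 had a log2 fold change of 7.07 in tumours on the intestine, 8.43 in subcutaneous tumours and 7.35 in orthotopic tumours. Pecam1 had 2.51 in tumours on the intestine, 4.15 in subcutaneous tumours and 2.45 in orthotopic tumours. Esam was nearest to ascites in orthotopic tumours, at -1.04, and lay at -2.24 in subcutaneous tumours and -2.78 in tumours on the intestine. These 3 sets of values share the same ascites libraries. Library names carry the prefixes S, SM and SCT, whose meaning the labels do not state. Within the S libraries (2 solid tumours and 2 of ascites) the mean difference on the log2(CPM + 1) scale was 3.86 for Eltd1, 0.83 for Eng and -2.29 for Esam, and within the SM libraries (4 and 4) it was 3.77 for Eltd1, 0.28 for Eng and -1.31 for Esam. The other 7 genes also had the same sign within both prefixes, while SCT held subcutaneous tumours only and cannot be told apart from that site.

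**Figure D2:**
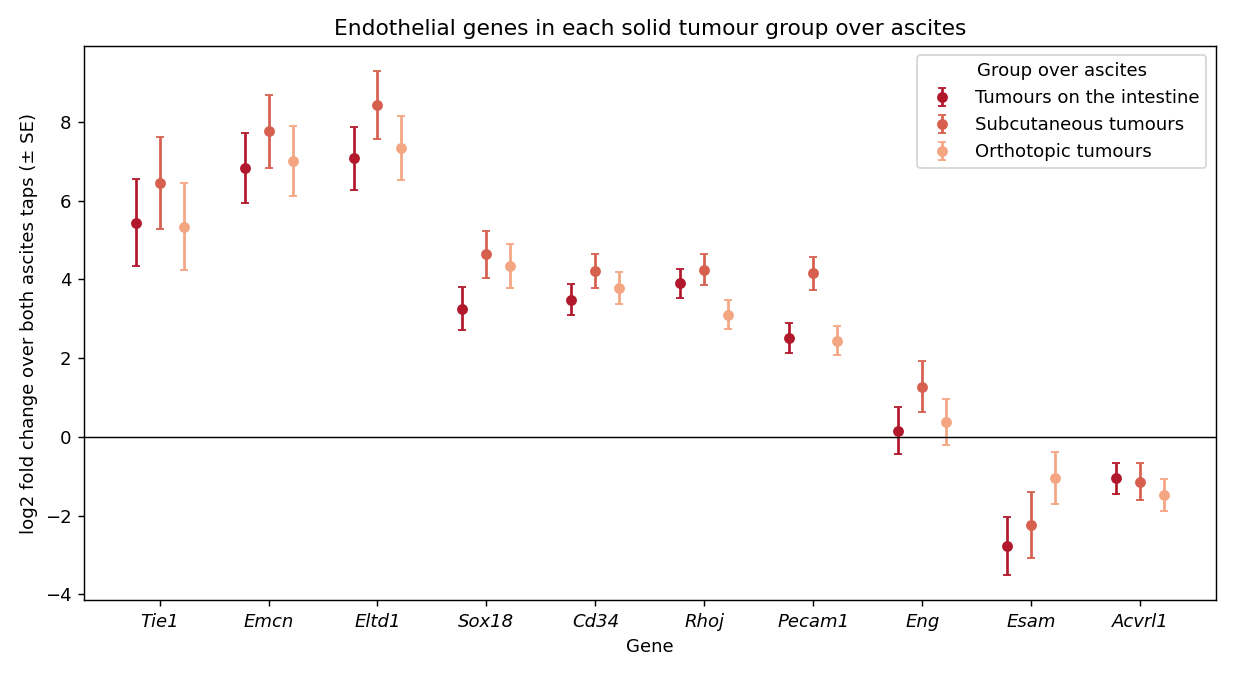
Log2 fold change over both ascites taps for each of the 10 genes in tumours on the intestine, subcutaneous tumours and orthotopic tumours. Bars are the SE derived from the F statistic and are not to be read as a test. For 7 genes the values lie above 2 at all 3 sites, Eng lies between 0.16 and 1.28, and Esam and Acvrl1 lie below 0 at all 3.

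Within ascites, Eng, Esam and Acvrl1 differed several fold between libraries. Eng was 48.7, 38.3 and 25.0 CPM in second taps 1 to 3, and 11.4, 67.7 and 11.9 CPM in first taps 1 to 3. The summed level of 11 macrophage markers had the same order over the 6 libraries, at 9339, 7689 and 5632 CPM in the second taps and 2265, 16720 and 3735 CPM in the first taps. All 11 of these markers, of 12 listed, had counts in every tumour and ascites library, with sums of 368 to 1051 CPM in solid tumours and 2265 to 16720 CPM in ascites. Pecam1 did not share the order of the macrophage markers. It was 12.9, 10.2 and 8.12 CPM in the second taps, and 8.93, 10.0 and 5.66 CPM in the first taps. Esam was 64.9, 112 and 141 CPM in the second taps, and 128, 15.7 and 228 CPM in the first taps. The 7 mesothelial markers, none at 0 in any library, were likewise highest in first tap 3 (6505 CPM) and lowest in first tap 2 (384 CPM). They summed to 1939 CPM in first tap 1, 1967 to 4109 CPM in the second taps and 92.7 to 1830 CPM in solid tumours. The order was not shared throughout, since first tap 1 had a lower sum of these markers than second tap 1 but more Esam. The ID8 line had 2117 CPM of these markers and 37.0 CPM of Esam. Acvrl1 was 30.0, 36.8 and 37.8 CPM in the second taps and 24.0, 25.2 and 77.6 CPM in the first taps, highest in first tap 3 as Esam was. The 9 platelet and megakaryocyte markers summed to 43.2 to 90.5 CPM in the second taps, 31.4 to 162 CPM in the first taps and 13.1 to 49.0 CPM in solid tumours, and none was at 0 in ascites. The part of macrophages, mesothelial cells, ID8 cells and platelets in these levels was not tested.

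**Figure D3:**
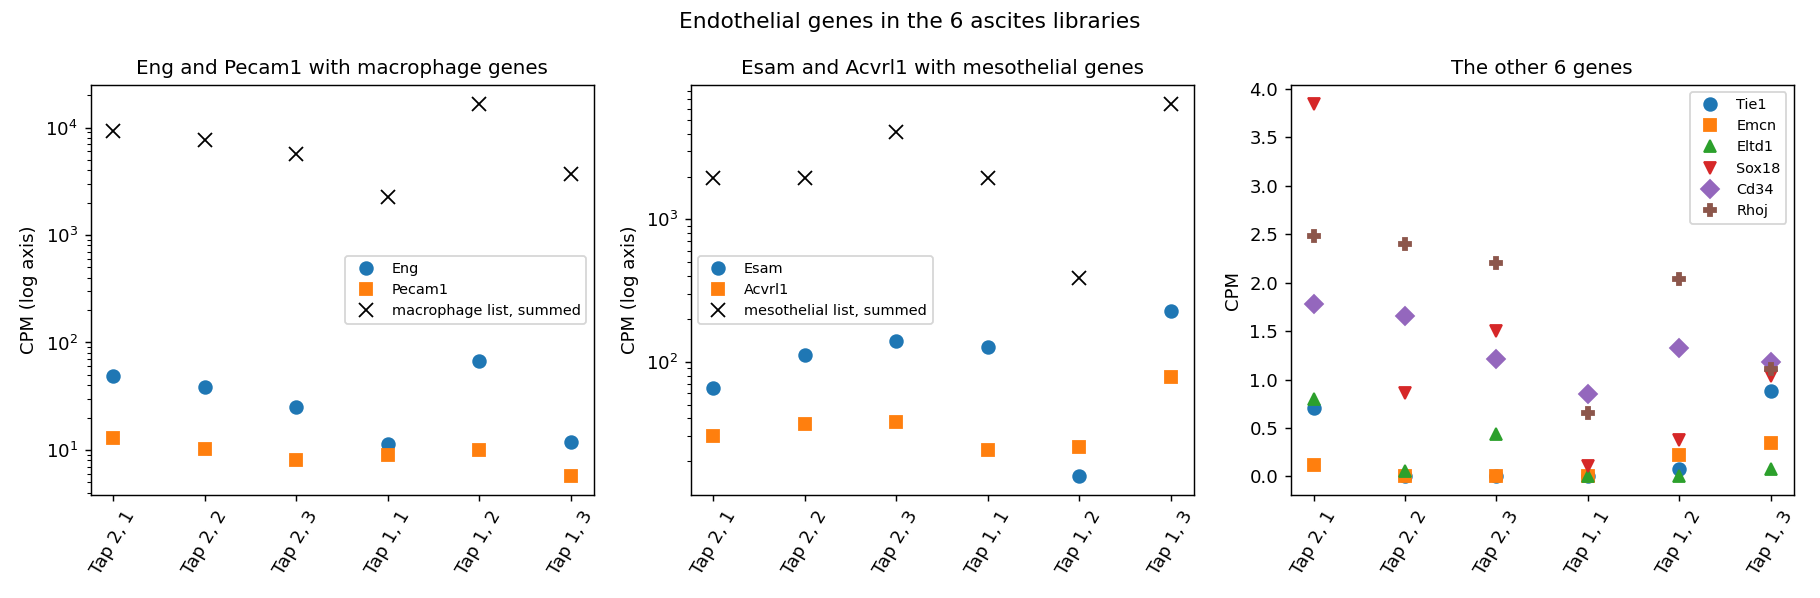
Levels of the 10 genes in the 6 ascites libraries, second tap left of first tap. Left, Eng and Pecam1 with the summed macrophage markers; middle, Esam and Acvrl1 with the summed mesothelial markers, both on log axes in CPM; right, the other 6 genes in CPM, none of them above 3.85.

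None of the 10 passed the test between the second and the first tap (edgeR's quasi-likelihood test with Benjamini-Hochberg adjustment over all genes, called at an adjusted p under 0.05), and 0.0% of all genes tested did. DESeq2 also called none of the 10 (0.00441% of all genes), and 2 of the 10 had an unadjusted p under 0.05 in edgeR. The share of all genes under that unadjusted threshold is not given, here or in the comparisons below, so nothing is read from such counts. Eltd1 had 0.799, 0.0572 and 0.441 CPM in the second taps, against 0, 0 and 0.0765 CPM in the first taps, a log2 fold change of 3.99 ± 1.19 (SE; edgeR adjusted p = 1). Sox18 had 3.85, 0.858 and 1.51 CPM in the second taps, against 0.110, 0.378 and 1.03 CPM in the first taps, a log2 fold change of 2.05 ± 0.70 (edgeR adjusted p = 1). The Eltd1 values rest on 41 reads in the second taps and 2 in the first. Second tap 1 alone gave 27 of those 41, and 130 of the 201 Sox18 reads of the second taps. First tap 3 gave the 2 Eltd1 reads and 27 of the 41 Sox18 reads of the first taps. Both libraries had an unusually large number of genes with a count.

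None of the 10 passed the test between tumours on the intestine and orthotopic tumours, a comparison in which 15.5% of all genes passed. DESeq2 called none (26.4% of all genes), and Esam alone had an unadjusted p under 0.05 in edgeR. Esam was 6.40, 18.2 and 25.2 CPM in tumours on the intestine, against 81.1, 35.8 and 50.2 CPM in orthotopic tumours. Its log2 fold change was -1.74 ± 0.75 (edgeR's quasi-likelihood test, Benjamini-Hochberg adjusted p = 0.134). Sox18 was 9.03, 9.08 and 11.2 CPM in tumours on the intestine, against 22.8, 20.4 and 18.4 CPM in orthotopic tumours, with a log2 fold change of -1.07 ± 0.65 (edgeR adjusted p = 0.28). Rhoj was 17.9, 18.6 and 41.1 CPM in tumours on the intestine, against 15.3, 13.8 and 15.6 CPM in orthotopic tumours, with a log2 fold change of 0.79 ± 0.43 (edgeR adjusted p = 0.223). The other 7 had log2 fold changes between -0.30 and 0.42. The median over the 10 was -0.19, beside 0.06 over all genes. Scaling by library size alone moved the median of all genes to -0.23 and turned the sign of Pecam1 and Tie1.

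None of the 10 passed between subcutaneous and orthotopic tumours either, where 0.0132% of all genes passed, while Pecam1 and Rhoj had an unadjusted p under 0.05. Pecam1 was 268 and 60.1 CPM in subcutaneous tumours 2 and 3, against 51.8, 58.9 and 40.4 CPM in orthotopic tumours, a log2 fold change of 1.70 ± 0.49 (edgeR adjusted p = 0.106). Rhoj was 40.7 and 24.9 CPM in subcutaneous tumours, against 15.3, 13.8 and 15.6 CPM in orthotopic tumours, a log2 fold change of 1.14 ± 0.47 (edgeR adjusted p = 0.201). DESeq2 called Pecam1 alone of the 10 (10.1% of all genes). Without subcutaneous tumour 3 edgeR also called it, with a log2 fold change of 2.27, but that setting called 987 genes in all, against 3 with every library. It leaves subcutaneous tumour 2 as the only library of its site, assumed to vary like the other groups. Subcutaneous tumour 2 had the highest level of 7 of the 10 genes among the solid tumours, and it also held 2591 CPM of the 7 B cell markers and 6491 CPM of the 7 adipocyte markers, against 6.97 to 88.3 CPM and 28.9 to 525 CPM in the other 7 solid tumours. Their part in its endothelial levels was not tested. Without that library the sign of Eng, Eltd1, Sox18 and Acvrl1 in this comparison turned.

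Levels across genes can be compared per kilobase of merged exon. On that scale the solid tumour mean was highest for Pecam1 (12.8 CPM per kb), Eng (12.6), Esam (11.6) and Sox18 (10.9), and lowest for Emcn (2.46), Cd34 (2.54) and Tie1 (3.00). In ascites the mean was highest for Esam, at 40.1 CPM per kb, followed by Acvrl1 at 9.04 and Eng at 8.36. Cdh5 (VE-cadherin), the cadherin of endothelial junctions and not one of the 10, had 13.8 CPM per kb in solid tumours and 0.281 in ascites.

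Scaled to Cdh5 within each solid tumour, the ratio of highest to lowest over the 8 tumours was 2.38 for Eng, 2.81 for Eltd1, 3.44 for Pecam1, 3.48 for Tie1, 3.53 for Sox18 and 3.87 for Emcn. It was wider for Cd34 (4.91), Rhoj (6.09), Acvrl1 (11.2) and Esam (12.9). Cdh5 itself spread by 11.8 times over the 8 tumours, so these ratios also carry its spread. Without the scaling the ratio was 2.09 for Acvrl1, 2.97 for Rhoj, 5.74 for Cd34 and 12.7 for Esam. It was then 3.70 for Sox18, 4.42 for Tie1, 5.44 for Eng, 6.115 for Eltd1, 6.49 for Emcn and 6.63 for Pecam1. Pecam1 was 268 CPM in subcutaneous tumour 2 and at most 65.0 CPM in the other solid tumours, and Eltd1 was 63.6 and at most 22.3 CPM. Cdh5 was also highest in subcutaneous tumour 2, at 184 CPM. The spreads of Pecam1, Eltd1 and Cdh5 without scaling therefore rest in large part on that library, and so does their narrowing on scaling. Eng lay at 1.25 to 1.64 CPM per CPM of Cdh5 in tumours on the intestine, 0.696 to 0.707 in subcutaneous tumours and 0.689 to 1.24 in orthotopic tumours. Cd34 stood apart in healthy ovary, at 1.37 per CPM of Cdh5, against 0.133 to 0.654 in the 8 solid tumours and 0.290 in healthy intestine. Cdh5 was chosen for this scaling with its own values known.

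**Figure D4:**
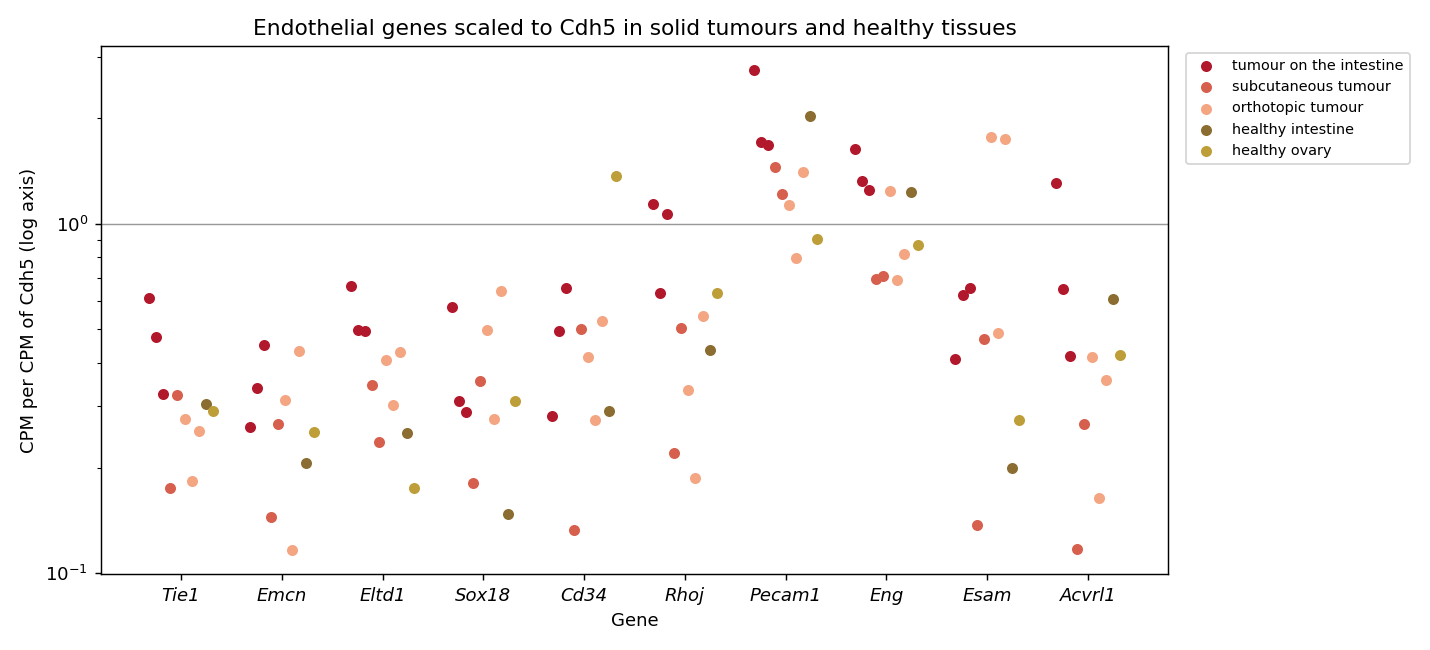
CPM of each gene per CPM of Cdh5, on a log axis, in the 8 solid tumours, healthy intestine and healthy ovary (points are libraries). On this scale Eng and Eltd1 spread least over the tumours, by 2.38 and 2.81 times, and Esam and Acvrl1 most, by 12.9 and 11.2 times. Cdh5 itself spread by 11.8 times, and without the scaling Esam spread by 12.7 times and Acvrl1 by 2.09 times. Subcutaneous tumour 2 had the highest Cdh5 of the 8 tumours, at 184 CPM.

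Against the healthy organ, orthotopic tumours had lower point estimates for 8 of the 10 genes than healthy ovary, and none passed, in a comparison in which 0.6% of all genes passed. It rests on 1 ovary library, which is assumed to vary like the other groups. In edgeR 3 of the 10 had an unadjusted p under 0.05. Cd34 was 19.1, 20.2 and 15.1 CPM in orthotopic tumours, against 117 CPM in healthy ovary, a log2 fold change of -2.69 ± 0.60 (edgeR's quasi-likelihood test, Benjamini-Hochberg adjusted p = 0.0734), and DESeq2 called this gene alone of the 10 (3.44% of all genes). Rhoj was 15.3, 13.8 and 15.6 CPM in orthotopic tumours, against 54.5 CPM in healthy ovary, a log2 fold change of -1.87 ± 0.55 (edgeR adjusted p = 0.19). Acvrl1 was 19.1, 12.1 and 10.3 CPM in orthotopic tumours, against 36.2 CPM in healthy ovary, a log2 fold change of -1.39 ± 0.58 (edgeR adjusted p = 0.391). Esam and Eltd1 had positive estimates, at 1.24 ± 1.11 and 0.24 ± 1.11. Adipocyte markers were at 54.7 to 525 CPM in orthotopic tumours and at 1392 CPM in healthy ovary, and their part was not tested.

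No difference between tumours on the intestine and healthy intestine passed for any of the 10 genes (edgeR, none at an unadjusted p under 0.05 where 0.0% of all genes passed, and none in DESeq2, where 0.198% did). Pecam1 was 43.0, 50.1 and 65.0 CPM in tumours on the intestine and 77.1 CPM in healthy intestine, a log2 fold change of -0.55 ± 0.61 (edgeR adjusted p = 1). Tie1 was 9.55, 13.9 and 12.6 CPM in tumours on the intestine and 11.6 CPM in healthy intestine, a log2 fold change of 0.05 ± 1.69 (edgeR adjusted p = 1). Log2 fold changes of all 10 lay between -0.55 and 1.14, and standard errors of 0.61 to 1.69 leave changes of several fold undetectable with 1 healthy library. Intestinal epithelial markers were at 5237 to 13720 CPM in tumours on the intestine and at 12560 CPM in healthy intestine. Smooth muscle markers were at 1272 to 1989 CPM and at 917 CPM. The part of host bowel in the endothelial levels of these tumours was not tested.

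The ID8 line had 0 reads of Cd34, Tie1, Emcn, Eltd1 and Sox18 in a library of 38887321 counts. Orthotopic tumours were at least 228-fold higher for Cd34, 141-fold for Tie1, 148-fold for Emcn, 224-fold for Eltd1 and 259-fold for Sox18, taking 3 reads in the line's library as the bound. Reads carry no molecular identifiers, so these bounds cover counting error only. Against the line 7 of the 10 genes passed in the upward direction, as did 2.37% of all genes, and none passed downward, as 0.834% of all genes did. These were Cd34, Emcn, Eltd1 and Sox18 of the genes at 0, and Pecam1, Rhoj and Acvrl1. Pecam1 had 51.8, 58.9 and 40.4 CPM in orthotopic tumours, against 0.954 CPM in the line, a log2 fold change of 5.72 ± 0.92 (edgeR's quasi-likelihood test, Benjamini-Hochberg adjusted p = 0.0134). Acvrl1 had 19.1, 12.1 and 10.3 CPM in orthotopic tumours, against 0.106 CPM in the line (4 reads), a log2 fold change of 6.97 ± 1.00 (edgeR adjusted p = 0.0104). Rhoj had a log2 fold change of 3.71 ± 0.77 (edgeR adjusted p = 0.0268).

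Esam was the exception to the line's low levels. It had 81.1, 35.8 and 50.2 CPM in orthotopic tumours and 37.0 CPM in the line (1397 reads), a log2 fold change of 0.59 ± 1.07 (edgeR adjusted p = 0.794). Eng, with 56.97, 50.8 and 23.5 CPM in orthotopic tumours and 2.65 CPM in the line, did not pass in edgeR (log2 fold change 4.04 ± 1.27, adjusted p = 0.1) and neither did Tie1 (adjusted p = 0.109), while DESeq2 called 9 of the 10, all but Esam, and 16.8% of all genes. Leaving out orthotopic tumour 1 or orthotopic tumour 2 brought the number called to 4, with 325 genes in all called without tumour 1 and 309 without tumour 2, against 726 with every library. The line is a single library assumed to vary like the other groups.

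Endothelial genes outside the 10 were read in the same contrast of solid tumours against ascites, with lists chosen while earlier results were known. Of 56 such genes, all tested, 26 were higher in solid tumours and 5 lower, beside 6.33% and 4.73% of all genes (edgeR's quasi-likelihood test with Benjamini-Hochberg adjustment). Every solid tumour lay above every ascites library for 19 of the 56, beside 1.76% of all genes tested. The reverse held for none, beside 1.32% of all genes tested. For the lists below the shares of all genes called are the same 6.33% higher and 4.73% lower, and 1 gene called in a short list is not read as a result.

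Of 25 further surface and junction genes, 11 were higher and 1 lower in solid tumours. Cdh5 ran from 15.6 to 184 CPM in solid tumours and 0.441 to 2.31 CPM in ascites, a log2 fold change of 5.53 ± 0.56 (edgeR adjusted p = 0.000329). Egfl7, a secreted protein of vessels, had a log2 fold change of 4.03 ± 0.42, Plvap, the protein of endothelial diaphragms, of 3.37 ± 0.40, and Mmrn2, an endothelial matrix glycoprotein, of 3.27 ± 0.36. Selp, P-selectin of endothelium and platelets, was the lower one, at 0.934 to 13.5 CPM in solid tumours and 10.1 to 82.0 CPM in ascites.

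Of 15 intracellular signalling and other vascular genes, 10 were higher and 2 lower. Cyyr1 had a log2 fold change of 6.90 ± 0.98, Shank3 of 4.70 ± 0.67, Arhgef15, a guanine nucleotide exchange factor, of 3.73 ± 0.58, and Apold1 of 2.83 ± 0.48. The lower ones were Stab1, a scavenger receptor of sinusoidal endothelium and macrophages, at 46.9 to 107 CPM in solid tumours and 98.1 to 4310 CPM in ascites, and Tm4sf1, at 7.66 to 111 CPM in solid tumours, 104 to 693 CPM in ascites and 792 CPM in the ID8 line.

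Of 16 endothelial transcription factors, 5 were higher and 2 lower in solid tumours. Erg, an ETS factor of endothelium, ran from 2.1 to 12.2 CPM in solid tumours and 0 to 0.651 CPM in ascites, a log2 fold change of 4.36 ± 0.88 (edgeR adjusted p = 0.00926). Gata2 had a log2 fold change of 2.19 ± 0.39 and Epas1, the hypoxia-inducible factor of vessels, of 1.93 ± 0.36. Klf2, the flow-responsive factor that macrophages and lymphocytes also express, was lower at -1.90 ± 0.38, and Lyl1, a factor of blood and endothelial cells, was lower at -1.86 ± 0.55. The 5 lower genes named in these lists include Selp, Stab1, Tm4sf1 and Lyl1, which were named after their values were seen.

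The pathways around the receptors were mixed. Of 13 VEGF and angiopoietin genes, 4 were higher and 1 lower in solid tumours. Among the higher ones were Angpt1 at 4.65 ± 0.68 (log2 fold change), its receptor Tek at 4.19 ± 0.53 and the VEGF receptor ligand Figf at 2.32 ± 0.41, and the lower one was Nrp2 at -2.01 ± 0.29. Of 14 genes of the endoglin and ALK1 pathway, 12 were tested, and 4 were higher and none lower in solid tumours. These were the signal transducers Smad9 (2.25 ± 0.56) and Smad1 (1.53 ± 0.31), the target Id3 (1.26 ± 0.33) and the inhibitory Smad7 (0.86 ± 0.25). The ligands Gdf2 and Bmp10 did not pass the filter, with at most 1.67 and 0.42 CPM in any solid tumour.

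By vessel type, 5 of 8 arterial genes were higher in solid tumours and none lower, led by Hey1 (log2 fold change 2.72 ± 0.29) and the Notch ligand Dll4 (5.41 ± 0.68). Of 6 venous genes Aplnr was higher, at 3.37 ± 0.53, and Selp lower. Of 7 lymphatic genes Mmrn1 (4.73 ± 0.42) and Reln (4.54 ± 1.02) were higher, and Lyve1, which macrophages also carry, was lower at -3.52 ± 0.74. Pericytes, the cells that wrap small vessels, followed the same direction: of 9 markers 8 were tested and 6 were higher, among them Rgs5 (9.45 ± 0.74), Pdgfrb (4.58 ± 0.38), Notch3 (3.62 ± 0.45) and Cspg4 (2.76 ± 0.30), with summed levels of 211 to 1040 CPM in solid tumours and 10.4 to 46.8 CPM in ascites. Of 9 platelet and megakaryocyte markers none was higher and Pf4, Gp9 and Treml1 were lower, and all 11 macrophage markers were lower in solid tumours.

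Over the 17 libraries, which share group structure and so give no test, the correlation of each gene's log2(CPM + 1) with the mean of the other 9 was 0.944 for Pecam1, 0.932 for Sox18, 0.926 for Cd34, 0.905 for Emcn, 0.904 for Tie1, 0.897 for Eltd1 and 0.894 for Rhoj. It was 0.709 for Eng, 0.152 for Acvrl1 and -0.469 for Esam. Over the 8 solid tumours alone the median correlation with the other genes was highest for Eltd1 (0.704) and Pecam1 (0.700) and lowest for Esam (0.223). Subcutaneous tumour 2 weighs heavily in these values. It had 63.6 CPM of Eltd1 and 268 CPM of Pecam1, against at most 22.3 and 65.0 CPM in the other solid tumours. Among 11895 named genes tested that averaged at least 5 CPM over the solid tumours, a filter on the group where most of the 10 are high, the 8 most correlated with the mean of the 10 were Bcl6b, Col5a3 and Dchs1 (0.956 each), Cspg4 (0.947), Cdh5 (0.946), Galnt15 (0.945), Lama4 (0.932) and Fgd5 (0.930). Of these Col5a3 ran from 5.98 to 40.7 CPM in solid tumours and 0.657 to 2.87 CPM in ascites, with 0 in the line.

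**Figure D5:**
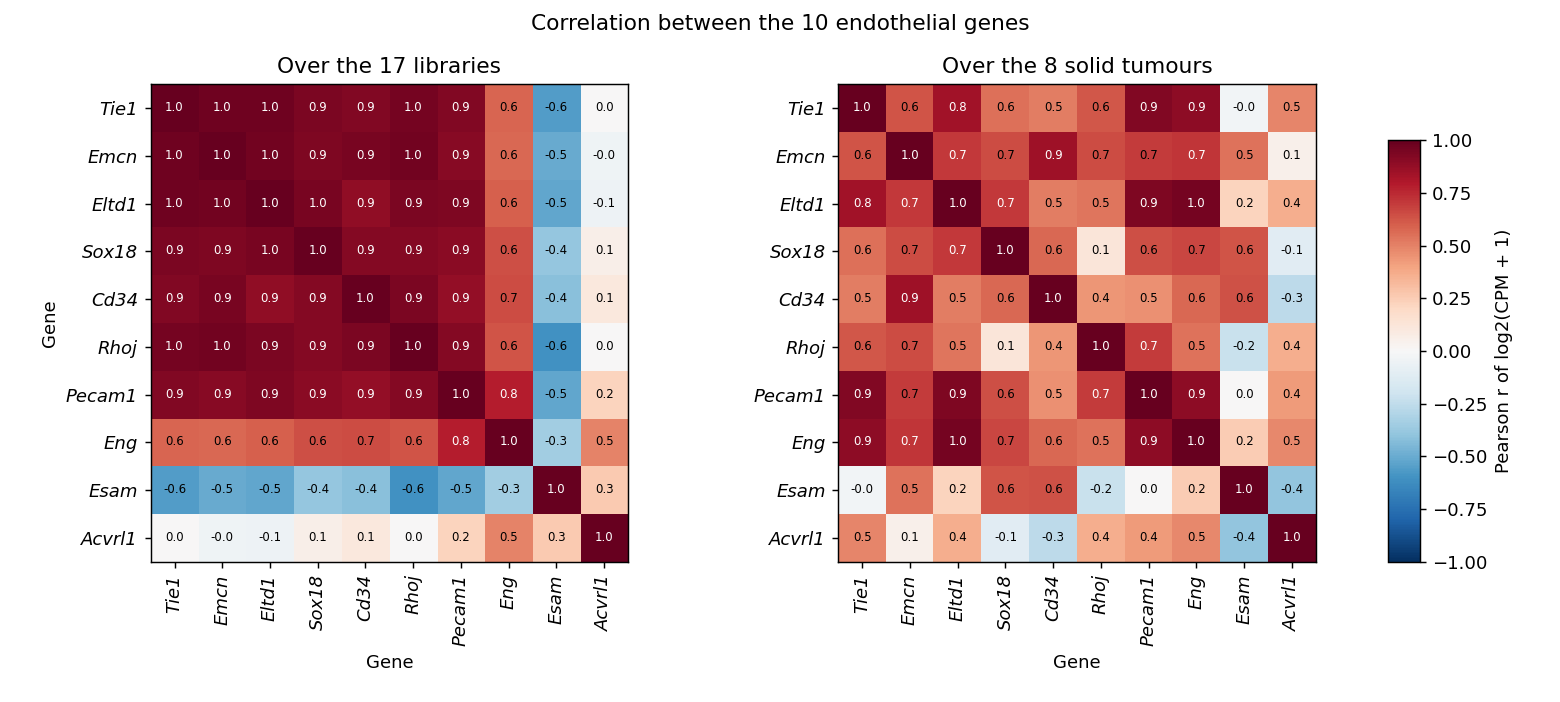
Pearson correlation of log2(CPM + 1) between each pair of the 10 genes over the 17 libraries (left) and over the 8 solid tumours (right), on a colour scale from -1 to 1. The 7 genes at the top form a block of high correlation over 17 libraries, where Esam has a median correlation of -0.501 with the others and Acvrl1 of 0.058. In the right panel subcutaneous tumour 2, far above the other tumours for Pecam1 and Eltd1, weighs heavily.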

How the data were processed

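Libraries were made from total RNA (Trizol, a modified directional NEBNext Ultra II protocol, per the labels' protocols), and the authors deposited a table of raw counts per gene. The submitters' processing notes name HISAT2, HISAT, featureCounts and DESeq2 without their roles. Those notes name the builds mm39 and hg19 and no versions. Column names were matched to library names in the labels, and 1 column that matched no sample was not used. From the counts, CPM scaled by TMM were computed, and genes above 0.5 CPM in at least 2 libraries (22671) were fitted with edgeR 4.0.16 (quasi-likelihood, R 4.3.3) over all 17 libraries and 8 groups, with Benjamini-Hochberg adjustment over all genes tested. The alternatives were DESeq2 1.42.0, library size scaling, no filter or more than 1 CPM in at least 3 libraries, a replicate block, a term for the library name prefix (chosen after seeing the data) and each replicate left out. The fit was tested on simulated data. The 10 genes and all gene lists were chosen with earlier results of these data known. From each list up to 4 genes that passed with the smallest p were named, and genes outside that rule are said to be chosen after their values were seen.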

Additional observations from a re-analysis of the deposited data

How the results depend on the processing

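Every one of the 10 genes kept its sign in solid tumours against ascites under all 20 settings, but the sizes moved. The log2 fold change ran from 5.44 to 8.649 for Tie1, 6.887 to 8.887 for Emcn and 7.105 to 8.96 for Eltd1. These genes had 49, 19 and 43 reads in ascites. As a ratio of mean CPM, Emcn (116) lay above Eltd1 (94.2). The range was 0.224 to 1.317 for Eng and 3.708 to 4.046 for Cd34. Of 260 values with 1 replicate left out, over the 6 tested comparisons, 226 kept direction and call, 8 lost a call, 1 gained one and 25 turned sign, and of 320 under other settings 309 kept both, 4 lost a call, 4 gained one and 3 turned sign. All lost calls were against the line: Emcn with library size alone, with the prefix term, with no filter and without each orthotopic tumour, Rhoj with library size alone and without each orthotopic tumour, and Eltd1 without orthotopic tumour 1 or 2. No value that turned sign had passed the test, and the cause was not tested. DESeq2 called 1 of the 10 in subcutaneous against orthotopic tumours and 1 in orthotopic tumours against healthy ovary, where edgeR called 0. Leaving out 1 replicate gave 4 to 5 called in orthotopic tumours against the line (7 with all) and 0 to 1 in subcutaneous against orthotopic tumours. In tumours on the intestine against orthotopic tumours, library size alone gave -0.197 for Pecam1 and -0.196 for Tie1 (log2), and the prefix term -0.058 for Tie1. With 1 replicate left out, the log2 fold change there ran from -0.205 to 0.149 for Pecam1, -1.021 to 0.097 for Cd34, -0.199 to 0.203 for Tie1, -0.586 to 0.014 for Eng and -0.828 to 0.178 for Emcn. In subcutaneous against orthotopic tumours it ran from -0.346 to 1.407 for Eng, -0.625 to 1.696 for Eltd1, -0.256 to 0.561 for Sox18 and -0.085 to 0.636 for Acvrl1. In the second against the first tap it ran from -6.173 to 2.68 for Tie1, -0.168 to 1.685 for Eng, -0.751 to 0.575 for Esam and -0.593 to 0.469 for Acvrl1. Against healthy intestine it ran from -0.126 to 0.928 for Cd34, -0.01 to 0.25 for Tie1 and -0.067 to 0.878 for Emcn. Over all genes, edgeR called 3 in subcutaneous against orthotopic tumours (DESeq2 2300, no filter 140, without subcutaneous tumour 3 987), 726 against the line (DESeq2 3809), 136 against the ovary (DESeq2 780), 3517 in tumours on the intestine against orthotopic tumours (DESeq2 5983) and 2508 in solid tumours against ascites (DESeq2 4423). Library size alone moved the median of all genes against healthy intestine to 0.19 from 0.02 and against the line to 0.38 from 0.24. With the replicate block, 0 of the 10 genes passed in tumours on the intestine against orthotopic tumours, in subcutaneous against orthotopic tumours and between taps, and the count over all genes was 3190, 8 and 0. The numbers share no stated animal, so they are not taken as pairs. As deviations from the mean of their own tap group, same-numbered taps had correlations of -0.557, -0.211 and 0.441. Taps with different numbers had correlations of -0.352 to 0.673, and only second tap 3 correlated best with its own number. The value of 0.673 was for first tap 1 with second tap 2, the ascites libraries with the prefix S. Same-numbered taps 1 and 2 each joined an S and an SM library. These correlations therefore cannot be told apart from the prefix and decide nothing about pairing. No paired analysis was possible for the comparisons with the line and the healthy organs because each holds 1 library.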
